A study of Mus musculus with 19 samples.

Results

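The striatum of all mutant huntingtin knock-in (KI) mice was compared with that of wild type (WT) mice by RNA sequencing, and the genes were sought that differed from WT in the same direction in each of 3 KI genotypes. The comparison took in all 19 mice of the series, 12 KI and 7 WT. The KI genotypes, named KI-96, KI-571 and KI-FL, had 4 mice each, and the mean of the 3 genotypes, with equal weight for each, was set against the mean of the WT mice. All mice were 6 months old and on the C57/BL/6 background. By the account in the study the KI mice were heterozygous, so that each also kept a normal mouse Htt allele. KI-FL mice carry HD140Q, a full-length mouse Htt gene with an expanded polyQ repeat, expressed from its own promoter. KI-96 and KI-571 mice were made by Cas9 injection into HD140Q zygotes to truncate the gene. Their edited genes encode a shorter or a longer N-terminal fragment of the same mutant protein. On western blots, however, the study saw a single mutant fragment in KI-571 brain. It matched the smallest fragment of KI-FL brain in size, and KI-96 brain showed the same pattern. The 3 genotypes share the repeat and the HD140Q origin. The labels name separate samples of a genotype but say nothing of littermates, so that the p-values measure the spread between these samples.

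Huntingtin is a large scaffold protein found in most cells, and an expanded polyQ repeat in its first exon causes Huntington's disease. The N-terminal fragment with the repeat enters the nucleus and aggregates there, and it is known to disturb transcription. The striatum is the region hit first. Most of its neurons are GABAergic projection neurons of the direct and indirect pathways, and they lie among astrocytes, myelinating oligodendrocytes, microglia and vessels. Loss of projection neuron transcripts such as Penk, lower cholesterol synthesis and altered potassium channels of astrocytes are known features of HD mouse models.

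Reads counted on genes ranged from 12669809 to 26388542 per library (median 18202412). Some libraries stood apart. KI-FL replicate 4 had counts on 16384 genes, against 23177 to 28700 in the others. In KI-96 replicate 3, 24.2% of reads fell outside genes, against 11.1% to 16.0% in the others, and protein-coding genes in the shortest of 5 bins of exon length were 0.751 log2 lower relative to the longest bin than in the WT median. That difference lay between -0.182 and 0.260 in the other 18 mice. WT replicates 5 to 7 differed from WT replicates 1 to 4 in 9 genes with an adjusted p under 0.05 by edgeR's quasi-likelihood test. Xist, the RNA of the inactive X chromosome, exceeded 100 CPM in all 4 KI-96 mice, in 1 KI-FL mouse and in WT replicate 1, and was at most 5.11 CPM in the other mice, so that genotype and sex were not balanced. Levels are given in CPM, counts scaled to library size with edgeR's TMM factors.

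Few genes passed. Of 17906 genes tested outside the X and Y chromosomes, 15 had an adjusted p under 0.05 (edgeR, Benjamini-Hochberg), which is 0.0838% of all. Of these, 3 were higher in KI mice (0.0168%) and 12 were lower (0.0670%). All 15 had the same sign in each KI genotype, where 49.0% of all tested genes did. Genes picked by a small p for the mean of these genotypes lean to a shared sign, so this adds no separate support. Protein-coding genes made up 10 of the 15, and the other 5 were pseudogenes and noncoding RNAs. At an adjusted p under 0.1, 113 genes (0.631%) were counted, 35 higher and 78 lower, and 111 of them had the same sign in the 3 genotypes. An unadjusted p under 0.05 was found for 2272 genes (12.7%), of which 852 were higher (4.76%) and 1420 lower (7.93%). In 2164 of the 2272 the sign was shared by the 3 genotypes, which all lean on the same WT mice.

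The count of 15 rested on the choice of mice, WT and KI, and on the model. With WT replicates 1 to 4 alone, or with Xist (log2 CPM) added as covariate, 0 genes passed in edgeR, and 788 and 1482 genes had an unadjusted p under 0.05. With WT replicates 5 to 7 alone, 43 genes passed, 7 of them among the 15. Without WT replicate 5, 6 or 7 the count was 3 each time, without WT replicate 1, 2, 3 or 4 it was 40, 23, 24 or 9. It was 160 without KI-96 replicate 3, the library with the most reads outside genes, 136 without KI-571 replicate 4, 84 without KI-96 replicate 4 and 44 without KI-FL replicate 4, and all 15 genes were among those that passed in each of these 4 cases. It was 9 without KI-96 replicate 1, 8 without KI-571 replicate 2 and 6 without KI-96 replicate 2, KI-FL replicate 2 or KI-FL replicate 3. DESeq2 called 259 genes, 14 of the 15 among them. The plot of counts by way of analysis sets these side by side.

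**Figure D1:**
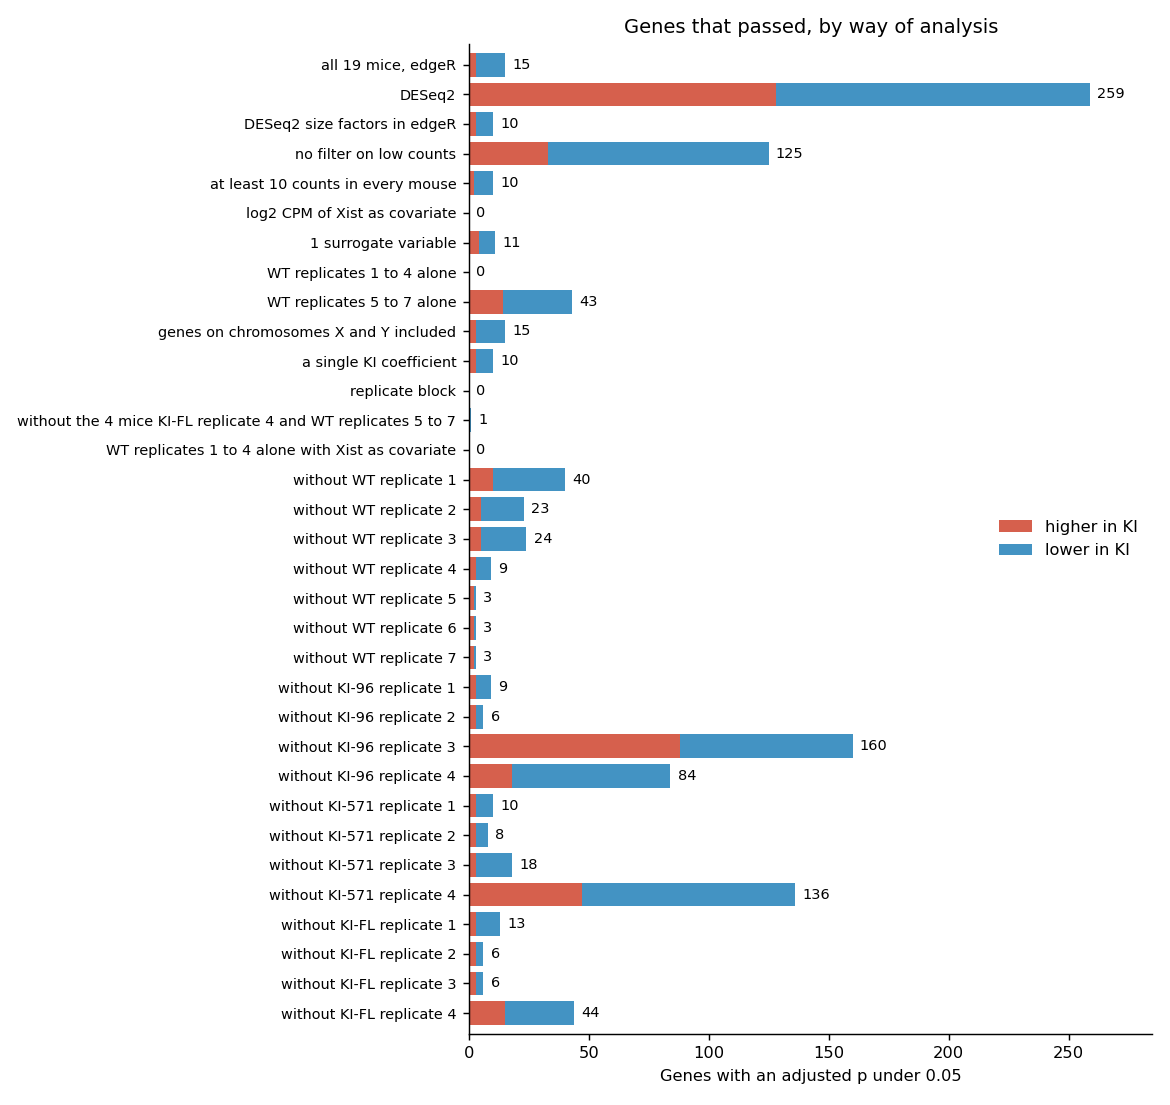
Number of genes with an adjusted p under 0.05 for the mean of the KI genotypes against WT (x axis), for each way of analysis and each mouse left out (y axis), with genes higher in KI mice in red and genes lower in KI mice in blue. The count was 15 with all 19 mice in edgeR, 259 with DESeq2 and 0 with WT replicates 1 to 4 alone.

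Htt itself, the edited gene, was at 180 ± 9.65 CPM in WT mice (mean ± SD, n = 7) and at 155 ± 34.7 CPM in the 12 KI mice. Its log2 fold change was -0.24 (SE 0.081, adjusted p = 0.218), so that Htt did not pass. The 3 genotypes did not move together: the log2 difference from WT was 0.04 in KI-96, -0.54 in KI-571 and -0.21 in KI-FL mice, and the spread among them had an unadjusted p = 0.0004 (adjusted 0.167). By a two-sided exact permutation test over the 50388 splits of 12 against 7 mice, p was 0.0568 for Htt (0.227 adjusted over 4 genes taken from the study). The others were Hspbp1, which encodes an inhibitor of Hsp70 (log2 fold change 0.04, adjusted p = 0.923), Stub1, which encodes the ubiquitin ligase CHIP (0.02, 0.946), and Gfap, the astrocyte filament gene (-0.27, 0.472). Their exact p was 0.948, 0.826 and 0.197. Genes within 5 Mb of Htt on chromosome 5 were checked as well, since that stretch was selected with the edited allele. Of 153 tested, 24 had an unadjusted p under 0.05 and 0 passed. Over all tested genes, 12.7% had an unadjusted p under 0.05 and 0.0838% passed.

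Kcng1 showed the clearest rise. It encodes a modifier subunit of voltage-gated potassium channels that is silent alone and acts within Kv2 channels (ENSMUSG00000074575.4, chromosome 2, 168260117 to 168281736). The level in WT mice ran from 22.04 to 40.4 CPM with a median of 30.9. KI-96 mice were at 64.5, 53.4, 66.8 and 44.9 CPM, KI-571 mice at 72.0, 58.1, 47.9 and 40.4 CPM, and KI-FL mice at 77.1, 70.4, 62.1 and 47.2 CPM. All 12 KI mice lay above all 7 WT mice, with almost no gap between KI-571 replicate 4 and WT replicate 3. The mean was 1.82-fold higher, a log2 fold change of 0.87 (SE 0.13, adjusted p = 0.0139), and by genotype it was 0.84, 0.77 and 0.999. Kcng1 passed with each of the 19 mice left out. With WT replicates 1 to 4 alone the change was 0.71 (adjusted p = 0.636), and with WT replicates 5 to 7 alone it was 1.11 (adjusted p = 0.00921).

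Lamb1, the gene of the laminin beta 1 chain of basement membranes, rose 1.37-fold (ENSMUSG00000002900.16, chromosome 12, 31265234 to 31329644). It was at 27.8 to 35.6 CPM in WT mice (median 33.8). KI-96 mice had 46.7, 39.9, 44.7 and 34.2 CPM, KI-571 mice 48.7, 48.1, 40.7 and 41.7 CPM, and KI-FL mice 48.7, 50.3, 45.8 and 56.7 CPM. Only KI-96 replicate 4 lay within the WT range. The log2 fold change was 0.45 (SE 0.076, adjusted p = 0.0179) and grew from 0.32 in KI-96 over 0.44 in KI-571 to 0.60 in KI-FL mice, with an unadjusted p of 0.0547 for the spread among the genotypes. The size stayed between 0.43 and 0.48 under all 32 alternatives, and Lamb1 passed with 16 of the 19 mice left out in turn, the exceptions being WT replicates 5, 6 and 7.

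Alb, the gene of serum albumin, was the third to rise. WT mice had 0 to 2 counts and KI mice 2 to 467 counts. In CPM, KI-96 mice had 8.85, 1.71, 0.11 and 19.8, KI-571 mice 1.71, 2.62, 4.29 and 6.14, and KI-FL mice 2.73, 7.24, 0.25 and 1.01. KI-96 replicate 3, with 2 counts, was no higher in counts than WT replicates 5 and 7, and lay above them in CPM through its smaller library. Against a floor of 3 counts in the mean WT library KI-96 mice averaged at least 52.4-fold higher, KI-571 mice 25.4-fold and KI-FL mice 19.4-fold (adjusted p = 0.0139). Single mice carried much of this. In a check added after seeing the data, the bound was 24.5-fold in KI-96 mice without replicate 4 and 9.16-fold in KI-FL mice without replicate 2. Alb is a liver gene. Of 30 genes of liver-secreted proteins, 13 were tested and 3 had an unadjusted p under 0.05, all higher: Alb, Ahsg and Apoa2. Ahsg, which encodes fetuin A, reached at most 0.041 CPM in WT mice and exceeded this in 10 of 12 KI mice, up to 3.05 CPM, with an adjusted p of 0.0573. The summed level of the list was 90.5 to 406 CPM in WT and 54.3 to 5091 CPM in KI mice. KI-571 replicates 2 and 4 and KI-FL replicate 1 had 2855 to 5091 CPM, and also the highest sums of choroid plexus and ependyma genes. In these 3 mice Alb was at 2.62, 6.14 and 2.73 CPM. KI-96 replicate 4, with the most Alb, had a list sum of 218 CPM. The part of this list in the Alb result was not tested.

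Below the threshold, Tspan31, which encodes a tetraspanin membrane protein, had a log2 fold change of 0.53 (SE 0.11, adjusted p = 0.0535), with 11 of 12 KI mice above all WT mice. Kcnf1, another silent Kv subunit like Kcng1, had a log2 fold change of 0.42 (SE 0.087, adjusted p = 0.0570), and all 12 KI mice lay above the WT median. By genotype Kcnf1 was 0.41, 0.40 and 0.44 above WT, so that the 3 genotypes hardly differed.

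**Figure D2:**
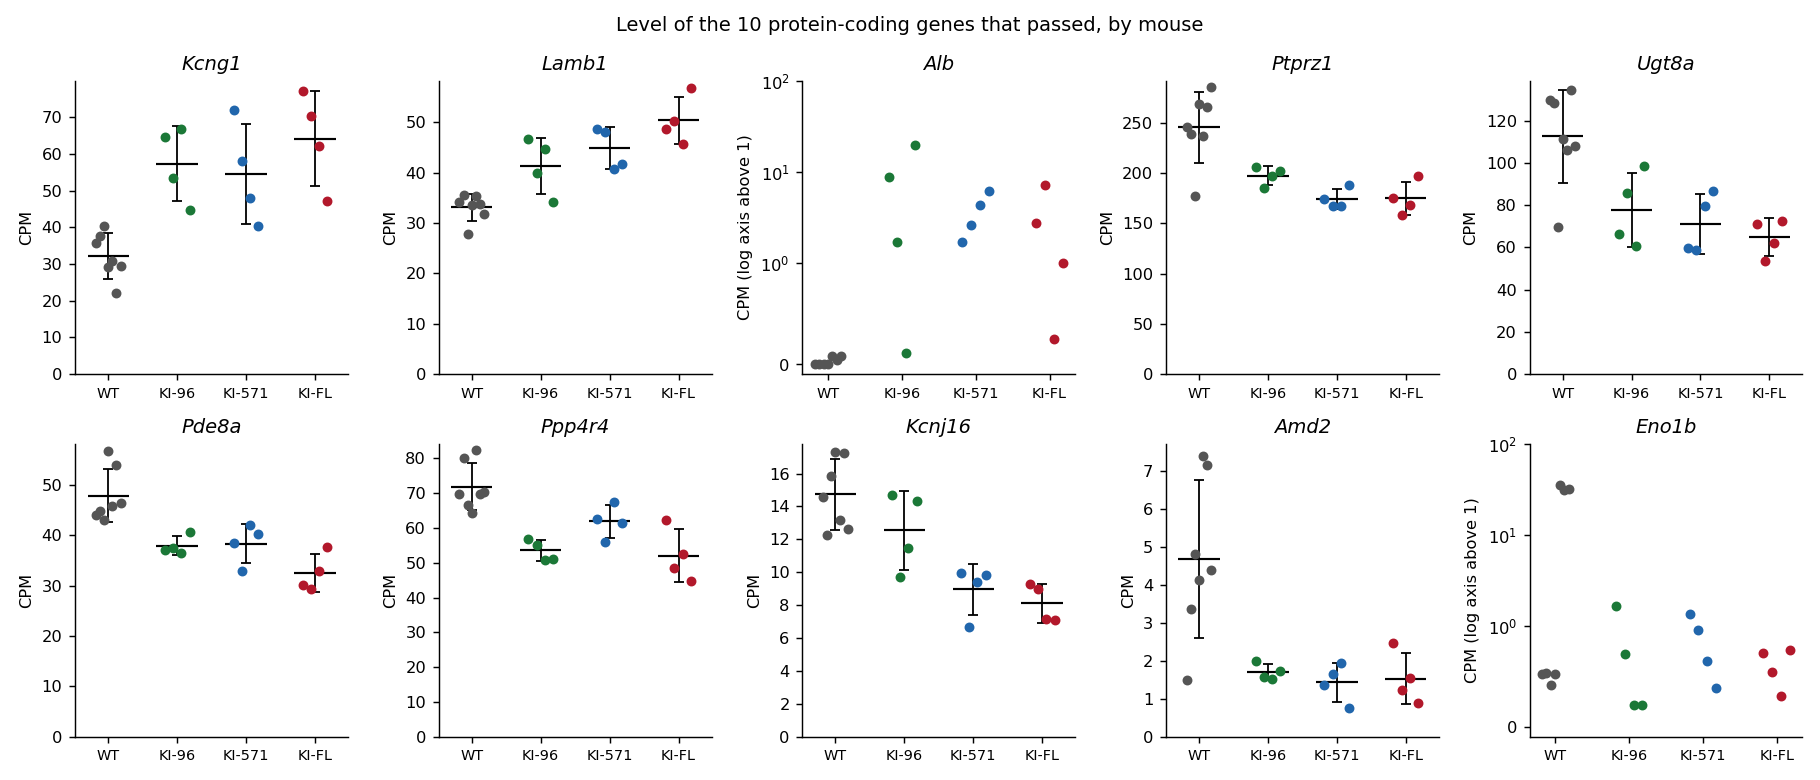
Level in CPM (y axis) of the 10 protein-coding genes that passed, by genotype (x axis). Each point is a mouse, and lines and bars give the mean and SD of a genotype, except for Alb and Eno1b, whose axis is logarithmic above 1 CPM and which show mice only. All KI mice lay above WT for Kcng1 and below WT for Pde8a, and Eno1b was high in 3 WT mice alone.

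Among genes that fell, several are known from glia. Ugt8a encodes the enzyme that makes galactosylceramide, the main glycolipid of myelin (ENSMUSG00000032854.12, chromosome 3, 125865271 to 125938619). It was at 69.7 to 135 CPM in WT mice with a median of 112, the lowest value being that of WT replicate 3 and the next 106. KI-96 mice had 66.2, 86.0, 60.8 and 98.4 CPM, KI-571 mice 59.6, 58.9, 79.8 and 86.9 CPM, and KI-FL mice 71.0, 53.5, 62.3 and 72.7 CPM. All 12 KI mice lay below the WT median, and 6 lay below all WT mice. Ugt8a was 1.58-fold lower, with a log2 fold change of -0.66 (SE 0.12, adjusted p = 0.0308) and of -0.53, -0.66 and -0.80 by genotype. Its size was -0.63 with WT replicates 1 to 4 alone (adjusted p = 0.659) and -0.69 with WT replicates 5 to 7 alone (adjusted p = 0.0482).

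Ptprz1 encodes a receptor tyrosine phosphatase of astrocytes and oligodendrocyte precursors that carries chondroitin sulfate chains (ENSMUSG00000068748.7, chromosome 6, 22875502 to 23052916). WT mice had 177 to 285.1 CPM (median 246), again with WT replicate 3 lowest and the next at 237. KI-96 mice had 206, 185, 197 and 202 CPM, KI-571 mice 174, 167, 167 and 188 CPM, and KI-FL mice 175, 159, 169 and 197 CPM. Every KI mouse lay below the WT median, and below each WT mouse other than replicate 3. The log2 fold change was -0.43 (SE 0.076, adjusted p = 0.0247), and -0.31, -0.50 and -0.49 by genotype.

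Kcnj16 encodes Kir5.1, an inward rectifier potassium channel subunit that pairs with Kir4.1 (ENSMUSG00000051497.15, chromosome 11, 110968033 to 111027968). It was at 12.3 to 17.3 CPM in WT mice (median 14.6). KI-96 mice had 14.7, 9.71, 11.4 and 14.3 CPM, KI-571 mice 9.95, 6.67, 9.39 and 9.83 CPM, and KI-FL mice 9.31, 8.96, 7.14 and 7.08 CPM. The KI-571 and KI-FL mice all lay below WT, while 2 KI-96 mice lay within the WT range. The log2 fold change was -0.60 (SE 0.12, adjusted p = 0.0442), made up of -0.23, -0.71 and -0.86, and the spread among genotypes had an unadjusted p of 0.00422. Kcnj10, the gene of Kir4.1, its partner, which buffers potassium in astrocytes, was just above the threshold with a log2 fold change of -0.43 (SE 0.086, adjusted p = 0.0505). Kcnj10 was at 211 to 323 CPM in WT mice, and 11 of 12 KI mice, at 156 to 208 CPM, lay below all of them, while KI-96 replicate 4 had 238 CPM. In striatal tissue, fewer glial cells and less of these RNAs per cell cannot be told apart.

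Pde8a encodes a cAMP phosphodiesterase with high affinity (ENSMUSG00000025584.17, chromosome 7, 81213596 to 81334533). It was at 43.1 to 56.8 CPM in WT mice (median 45.9). KI-96 mice had 37.1, 37.5, 36.5 and 40.8 CPM, KI-571 mice 38.4, 32.9, 42.0 and 40.3 CPM, and KI-FL mice 30.1, 29.3, 32.9 and 37.7 CPM. All 12 KI mice were thus below all 7 WT mice, which held for 2 genes (0.0112%) among those tested. The log2 fold change was -0.41 (SE 0.075, adjusted p = 0.0319). Ppp4r4, which encodes a regulatory subunit of protein phosphatase 4 (chromosome 12, 103532283 to 103613831), was at 64.2 to 82.3 CPM in WT mice (median 69.8). It was at 50.9 to 56.9 CPM in KI-96, 55.9 to 67.6 CPM in KI-571 and 44.8 to 62.2 CPM in KI-FL mice, so that only KI-571 replicate 3 reached the WT range. Its log2 fold change was -0.37 (SE 0.070, adjusted p = 0.0432).

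Mice with no overlap between KI and WT were found for 5 genes in all (0.0279%): Kcng1, Alb and Pde8a, and outside the naming rule Chid1 and 5830444B04Rik, which are named here because their values do not overlap. Chid1, the gene of a chitinase-like protein, was at 48.0 to 57.6 CPM in WT and 57.9 to 71.0 CPM in KI mice, with a log2 fold change of 0.24 (adjusted p = 0.0909). The RNA 5830444B04Rik was at 3.76 to 4.34 CPM in WT and 1.70 to 3.71 CPM in KI mice (-0.49, adjusted p = 0.170).

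The start regions of 4 of these genes are shown, since the fall of Ugt8a, Ptprz1 and Pde8a and the rise of Lamb1 were shared by the 3 genotypes. A RefSeq window of 300 bases, from 250 before to 50 after the start on build GRCm38.p6, was found for 11 of the 15 genes that passed, and not for Kcng1. RefSeq starts can differ from those of GENCODE, and the Pde8a window ends before the GENCODE gene start of 81213596 given above. Capitals mark matches on either strand to the GC box (GGGCGG) and the CCAAT box (CCAAT), the E-box CACGTG and the cAMP response element TGACGTCA having none in the 4 windows. Neighbouring GC boxes may overlap. The windows are Ugt8a on chr3:125938603-125938902 (minus strand), Ptprz1 on chr6:22875252-22875551, Pde8a on chr7:81213015-81213314 and Lamb1 on chr12:31265043-31265342 (plus strand).
Ugt8a: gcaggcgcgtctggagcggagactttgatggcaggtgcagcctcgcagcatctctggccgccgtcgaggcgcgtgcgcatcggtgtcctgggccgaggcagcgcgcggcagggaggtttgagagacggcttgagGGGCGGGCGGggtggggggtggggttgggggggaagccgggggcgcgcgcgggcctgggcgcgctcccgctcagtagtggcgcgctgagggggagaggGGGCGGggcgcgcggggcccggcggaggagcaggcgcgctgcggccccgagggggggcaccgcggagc
Ptprz1: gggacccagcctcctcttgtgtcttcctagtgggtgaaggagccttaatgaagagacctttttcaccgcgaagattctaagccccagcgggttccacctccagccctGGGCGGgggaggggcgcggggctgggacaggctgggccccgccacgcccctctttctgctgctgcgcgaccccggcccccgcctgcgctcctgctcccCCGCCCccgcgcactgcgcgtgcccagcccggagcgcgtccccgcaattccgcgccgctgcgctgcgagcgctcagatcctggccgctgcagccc
Pde8a: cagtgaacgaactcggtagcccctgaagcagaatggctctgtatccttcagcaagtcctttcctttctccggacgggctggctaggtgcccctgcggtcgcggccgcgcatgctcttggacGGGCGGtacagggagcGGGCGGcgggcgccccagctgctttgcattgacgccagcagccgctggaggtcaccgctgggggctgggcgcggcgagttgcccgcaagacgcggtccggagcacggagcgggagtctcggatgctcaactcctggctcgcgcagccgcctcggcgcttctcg
Lamb1: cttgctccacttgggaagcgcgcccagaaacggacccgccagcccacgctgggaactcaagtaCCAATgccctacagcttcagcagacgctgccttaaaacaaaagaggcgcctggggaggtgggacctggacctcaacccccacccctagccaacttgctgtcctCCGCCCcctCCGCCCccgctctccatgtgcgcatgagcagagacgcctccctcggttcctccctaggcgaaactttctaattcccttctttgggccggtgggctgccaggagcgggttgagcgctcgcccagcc
The GC box was present 3 times in Ugt8a and 2 times in each of the other 3 windows, against at least a single match in 35.7% of all 32851 windows. The CCAAT box occurred once in Lamb1 and in 37.4% of all windows, CACGTG in 7.15% and TGACGTCA in 1.79% of them. CG pairs numbered 40 in Ugt8a, 29 in Ptprz1, 34 in Pde8a and 18 in Lamb1, with a median of 7 over all windows. A match describes the letters and is no evidence that a factor binds.

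The genes that fell most on the log2 scale were low genes and copies of other genes. Amd2 and Amd1 both encode S-adenosylmethionine decarboxylase, an enzyme of polyamine synthesis. Amd2 (ENSMUSG00000063953.3, chromosome 10, 35708675 to 35711892) has 1 exon, where Amd1 has 8, and 1001 of 1002 coding bases are the same. The other exon bases of Amd2, which has 3218 in all, were not compared. Within the coding sequence a read can be placed on either gene except over the differing base. The stretch of 120 coding bases around it, positions 709 to 828 of the coding sequence on build GRCm38 in GENCODE M21, lies on chr10:40290154-40290273 in Amd1 and on chr10:35710732-35710851 in Amd2, both on the minus strand, and the capital marks the base that differs.
Amd1: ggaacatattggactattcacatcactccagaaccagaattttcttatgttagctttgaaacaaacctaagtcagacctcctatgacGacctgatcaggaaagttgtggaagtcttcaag
Amd2: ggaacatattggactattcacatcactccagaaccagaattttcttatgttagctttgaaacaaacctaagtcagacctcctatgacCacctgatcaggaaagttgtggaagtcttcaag
Amd2 was at 1.51 CPM in WT replicate 1, 3.38 to 4.82 CPM in WT replicates 2 to 4 and 7 and 7.18 to 7.40 CPM in WT replicates 5 and 6. In KI mice it ran from 0.76 to 2.46 CPM, all below the WT median, with a log2 fold change of -1.59 (SE 0.26, adjusted p = 0.0165). Amd1, named here as the near-identical gene, was at 109 to 126 CPM in WT and 86.0 to 140 CPM in KI mice (-0.10, adjusted p = 0.618). The table keeps reads that did not align to a single place apart from the genes (3.07% to 5.27% of reads per library), so that only part of the reads from either gene could be counted, and the fall of Amd2 is uncertain.

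Eno1b, a copy of the glycolytic enzyme gene Eno1 on chromosome 18 (48045335 to 48048412), shares 1294 of 1302 coding bases with it. It had 815 to 854 counts in WT replicates 5 to 7, 7 to 10 in WT replicates 1 to 4 and 4 to 28 in the KI mice. The log2 fold change of -4.39 (SE 0.78, adjusted p = 0.0247) was thus carried by 3 WT mice and reversed to 0.46 with WT replicates 1 to 4 alone. Eno1, named as the parent gene, averaged 660 CPM in WT replicates 1 to 4 and 474 CPM in WT replicates 5 to 7, and was at 443 to 791 CPM in KI mice.

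The 5 other genes that passed were all lower. Gm3788 and Gm10180, processed pseudogenes of 136 and 78 bases of exon, had log2 fold changes of -1.90 (adjusted p = 0.0165) and -2.88 (0.0247), and 11 of 12 KI mice lay below all WT mice for each. Gm3788 was at 1.61 to 2.43 CPM in WT replicates 1 to 4, 3.55 to 4.85 CPM in WT replicates 5 to 7 and 0.32 to 1.63 CPM in KI mice. Catspere1, annotated as an unprocessed pseudogene on chromosome 1, had 0 to 2 counts in all KI-96 and KI-571 mice and in KI-FL replicate 2, and 67 or more counts in the other KI-FL mice. WT replicate 1 had 1 count of it, and the remaining WT mice 73 to 240. Its log2 fold change of -5.72 (adjusted p = 0.0139) therefore joined genotypes that differed, with an unadjusted p for their spread of 1.36e-05. The noncoding RNAs A330076H08Rik and 1700034H15Rik, of unknown function, had log2 fold changes of -0.70 (adjusted p = 0.0349) and -0.78 (0.0442). 1700034H15Rik is annotated as antisense, and without a stated strand setting its reads cannot be told from those of its partner.

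For the spread among KI genotypes, 0 genes passed in edgeR and 1480 (8.27%) had an unadjusted p under 0.05, while DESeq2 called 79. Of the 15 genes, 3 had an unadjusted p under 0.05 for this spread: Kcnj16, Catspere1 and Gm10180. The plot of differences by genotype shows that KI-96 mice were nearest to WT for Kcnj16, Kcnj10, Ptprz1, Ugt8a, Gria4, Amd2, Lamb1 and Tspan31. KI-571 mice were nearest to WT for Kcng1, Kcnf1, Ppp4r4 and Pde8a, and KI-FL mice for Vwf.

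**Figure D3:**
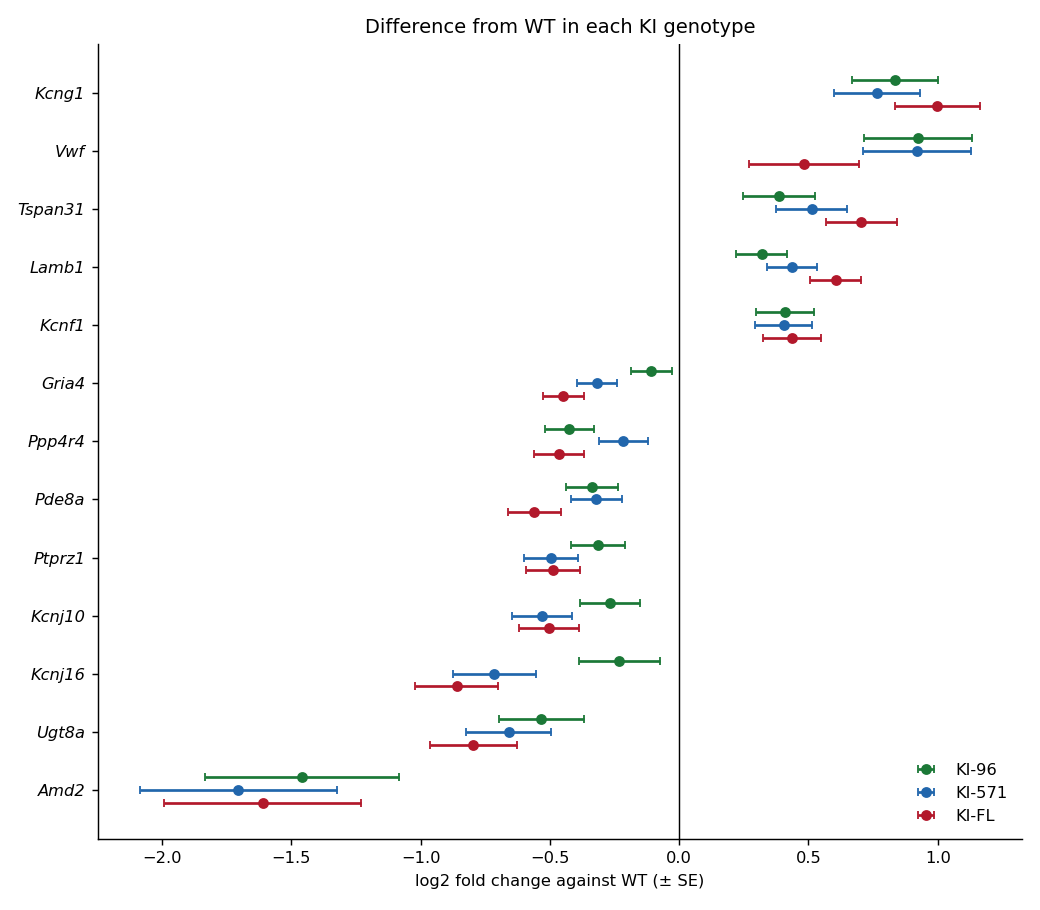
log2 fold change against WT with its SE (x axis) of 13 genes (y axis), by KI genotype. The 13 genes had the same sign in the 3 genotypes, and Kcnj16 ran from -0.23 in KI-96 to -0.86 in KI-FL mice. Vwf, Tspan31, Kcnf1, Gria4 and Kcnj10 did not pass.

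The pathways were described by 44 gene lists, each by how many tested members had an unadjusted p under 0.05, to be read against 4.76% higher and 7.93% lower over all tested genes and a median log2 fold change of -0.041. Counts of members called by DESeq2 are to be read against the 259 of 17906 genes that it called. Members other than the first of a list were named after their values were seen.

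Oligodendrocyte and myelin genes had the largest share of lower members among the 44 lists. Of 29 tested, 1 passed (Ugt8a; 4 in DESeq2), 12 had an unadjusted p under 0.05 and all 12 were lower. Signs were shared by the 3 genotypes in 17 genes, all lower, where 30.0% of all tested genes were lower in each genotype. On average 26 of 29 were lower, beside 10453 of 17906 over all tested genes. The median log2 fold change was -0.22, and by genotype -0.07 in KI-96, -0.15 in KI-571 and -0.31 in KI-FL mice. Tspan2, a tetraspanin of myelinating cells, was at 183 to 304 CPM in WT and 159 to 218 CPM in KI mice (-0.40, adjusted p = 0.0573). Aspa, the enzyme that splits N-acetylaspartate, was at 33.4 to 49.4 CPM in WT and 17.8 to 38.0 CPM in KI mice (-0.58, adjusted p = 0.0669). For both, 9 of 12 KI mice lay below all WT mice. Gjc3, a connexin, had a log2 fold change of -0.36 (adjusted p = 0.0906), Fa2h, which hydroxylates myelin lipids, -0.43 (0.182), and Opalin, a myelin membrane protein, -0.44 (0.247). Among the major myelin genes, Mbp was at -0.22, Mog at -0.17, Mag at -0.13, Cnp at -0.08 and Mobp at 0.04. Of the precursor genes, Pdgfra was at -0.03 and Cspg4 at 0.11, while Olig2, the lineage's transcription factor, was at -0.30 (adjusted p = 0.311). The summed level of the list was 12532 to 18363 CPM in WT, 10213 to 17325 CPM in KI-96, 12487 to 17313 CPM in KI-571 and 11905 to 13258 CPM in KI-FL mice, so that all 4 KI-FL mice lay below the 6 WT mice other than replicate 3. WT replicate 3 had the lowest sum among WT mice and KI-96 replicate 3 the lowest of all. The median was -0.15 with WT replicates 1 to 4 alone and between -0.27 and -0.15 with each mouse left out.

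**Figure D4:**
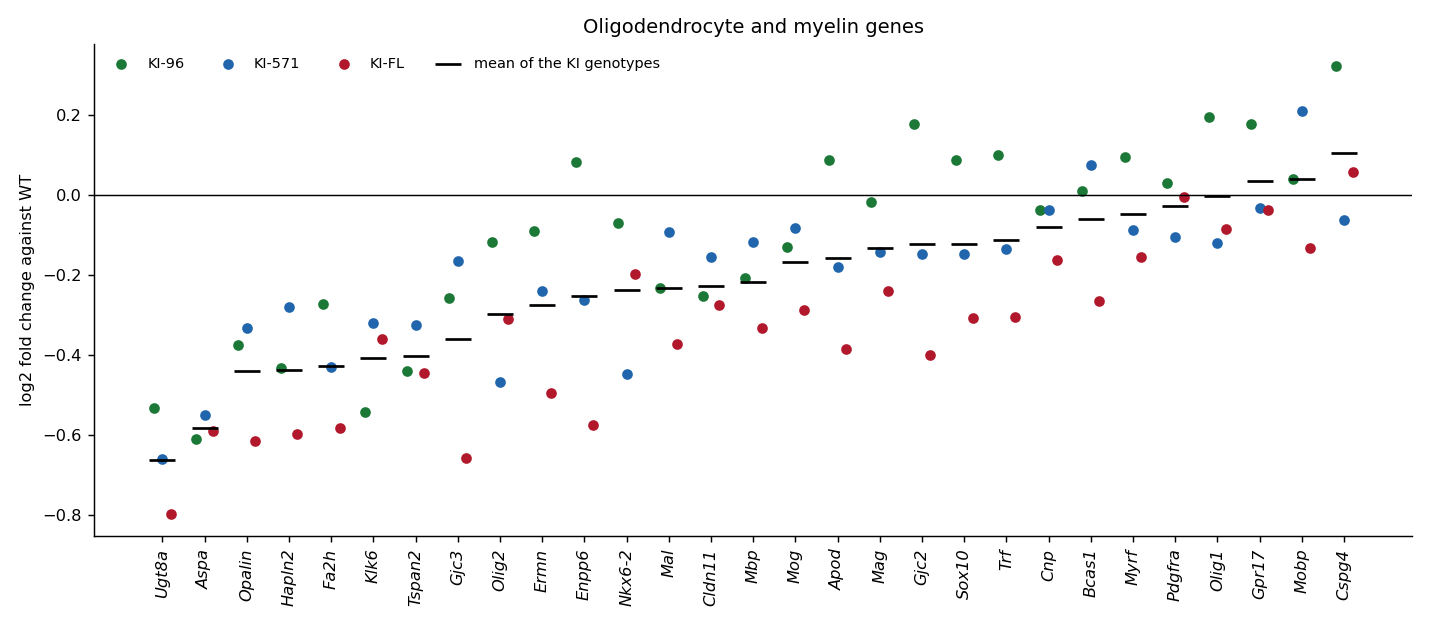
log2 fold change against WT (y axis) of the 29 tested oligodendrocyte and myelin genes (x axis) in each KI genotype, with the mean of the 3 as a black bar. The mean lay below 0 for 26 genes, and the KI-FL values were below 0 in all but Cspg4.

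Of 24 astrocyte genes tested, 0 passed in edgeR (1 in DESeq2), 7 had an unadjusted p under 0.05 and all 7 were lower, with a list median of -0.11 (-0.08 in KI-96, -0.05 in KI-571 and -0.26 in KI-FL mice). Beside Kcnj10 these included Fgfr3, a growth factor receptor (-0.26, adjusted p = 0.153), Aqp4, the water channel of astrocyte endfeet (-0.28, 0.201), Gja1, the connexin of astrocytes (-0.35, 0.205), Ntsr2, a neurotensin receptor (-0.43, 0.247), and Serpina3n, a marker of reactive astrocytes (-1.07, 0.182). For Fgfr3, 10 of 12 KI mice lay below all WT mice. Aqp4 was at -0.01 in KI-96, -0.31 in KI-571 and -0.52 in KI-FL mice. The summed level, set by a few abundant genes, was 6954 to 8070 CPM in WT and 6469 to 7990 CPM in KI mice and overlapped.

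Of 30 cholesterol synthesis genes tested, 0 passed in edgeR (2 in DESeq2), and 10 were lower and 1 higher at an unadjusted p under 0.05. In each genotype 18 of the 30 were lower, beside 30.0% of all tested genes. The median was -0.11 in KI-96, -0.13 in KI-571 and -0.13 in KI-FL mice. Idi1, which isomerizes isopentenyl diphosphate, was at 11.1 to 15.8 CPM in WT and 5.05 to 12.1 CPM in KI mice (-0.50, SE 0.14, adjusted p = 0.134). Hmgcs1, an early enzyme of the pathway, was at -0.31 (adjusted p = 0.144), Cyp51 at -0.22 (0.144) and Insig1, which holds the pathway's activator in place, at -0.25 (0.223). Cyp51 was below all WT mice in 9 of 12 KI mice. The single gene that was higher was Srebf2, which encodes that activator (0.18, 0.375). With Xist as a covariate the list median was -0.06, nearer to that of all tested genes.

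Of 78 potassium channel genes, Kcng1 and Kcnj16 passed, and 3 were higher and 10 lower at an unadjusted p under 0.05. The lower ones included the fast-spiking channels Kcnc2 (-0.50, adjusted p = 0.333) and Kcnc4 (-0.50, 0.313). Kcnc2 was at 0.07 in KI-96, -0.75 in KI-571 and -0.81 in KI-FL mice, so that its fall was not shared by the genotypes. Of 27 GABA receptor and transport genes, 1 was higher and 5 lower. Gad1, which makes GABA, was among the lower ones (-0.26, adjusted p = 0.274). Of 42 glutamate receptor and scaffold genes, 6 were higher and 4 lower. Gria4, an AMPA receptor subunit, was at 87.3 to 115 CPM in WT and 66.2 to 97.8 CPM in KI mice (-0.29, SE 0.058, adjusted p = 0.0535), and Grik2, a kainate receptor subunit, at -0.34 (0.0793). By genotype Gria4 was at -0.11 in KI-96, -0.32 in KI-571 and -0.45 in KI-FL mice. The largest rise of this list was that of Dlgap3 (0.31, adjusted p = 0.322). Of 35 calcium and sodium channel genes, 5 were higher and 1 lower, the sodium channel gene Scn1a (-0.30, adjusted p = 0.0895). Scn1a was at -0.09 in KI-96, -0.36 in KI-571 and -0.44 in KI-FL mice. The calcium channel gene Cacna1i rose most in that list (0.36, adjusted p = 0.164). Doc2b, a calcium sensor of vesicle release, led the 43 synaptic vesicle genes with 0.29 (adjusted p = 0.179), among which 1 was higher and 2 lower.

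Of the identity genes of striatal projection neurons, 0 passed in edgeR or DESeq2. Of 35 shared by both pathways, 2 were higher and 1 lower at an unadjusted p under 0.05, with a median of 0.076. Of 14 direct-pathway and 13 indirect-pathway genes, 0 were past that limit in either direction. Penk, the enkephalin gene of the indirect pathway, had the smallest p of its list, with 910 ± 172 CPM in WT and 743 ± 162 CPM in KI mice (-0.30, adjusted p = 0.410), and Sfxn1 that of the direct pathway (-0.14, 0.479). Syndig1l was highest in order among shared genes (0.33, 0.327). Among dopamine and cAMP signalling genes 2 of 36 were higher, led by the anchoring protein gene Akap5 (0.31, 0.339). Of 22 interneuron genes 2 were lower, Sox6 (-0.30, 0.206) and Vip (-1.38, 0.259).

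Markers of tissue near the striatum varied by mouse. Of 14 cortical neuron genes 4 were lower at an unadjusted p under 0.05, and the summed level was 1514 CPM in WT replicate 3, 740 CPM in KI-571 replicate 2 and 189 to 343 CPM in the others. The list median of -1.13 was 0.42 with WT replicates 5 to 7 alone and 0.02 in DESeq2, so that its direction is not settled. Cplx3, a complexin of deep cortical neurons, was at -1.16 (adjusted p = 0.124) and Nr4a2 at -1.76 (0.251), which was -0.65 without WT replicate 3. Of 20 choroid plexus and ependyma genes 8 were higher, with a median of -0.78 in KI-96, 2.95 in KI-571 and 1.48 in KI-FL mice, and only 1 had the same sign in the 3 genotypes. The sum was 4582 to 8044 CPM in KI-571 replicates 2 and 4 and KI-FL replicate 1, and 282 to 994 CPM in the other mice. Aqp1 led this list (2.29, 0.238). The part of these tissues in the results above was not tested.

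Genes of protein synthesis and mitochondria are given next. Of 79 cytosolic ribosomal protein genes 18 were higher and 3 lower at an unadjusted p under 0.05, and 0 passed in edgeR (7 in DESeq2), but the median was 0.045, with -0.06 in KI-96, 0.16 in KI-571 and 0.05 in KI-FL mice. Rpl35 was at 4.35 to 15.2 CPM in WT and 6.46 to 52.9 CPM in KI mice (1.44, SE 0.33, adjusted p = 0.0705). Genes of this family have many processed copies in the genome, so that their counts are uncertain. Of 58 translation factors 8 were higher and 4 lower. Eef1a1, the elongation factor that delivers tRNA, was at 1640 to 1873 CPM in WT and 1816 to 3279 CPM in KI mice (0.39, adjusted p = 0.127), and Eef2 at 1049 to 1337 and 1140 to 2106 CPM (0.37, 0.145), and in each 11 of 12 KI mice exceeded all WT mice. Eif3j2, also a near copy of another gene, was lowest at -2.26 (0.0705), and at -0.34 with WT replicates 5 to 7 alone. Of 77 mitochondrial ribosomal genes 5 were higher and 1 lower, led by Mrpl19 (0.29, 0.164), and the median was -0.036. On average 45 of the 77 were below WT, beside 10453 of 17906 over all tested genes, a like share. Of 87 respiratory chain genes 7 were higher and 4 lower with a median of -0.069, led by Ndufb8 (0.44, 0.0856), and of 12 genes of the mitochondrial genome 4 were higher and 0 lower, led by mt-Nd4l (1.84, 0.0930) at 2.03 CPM in KI mice.

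Of 58 splicing factor genes tested, 10 were lower and 1 higher at an unadjusted p under 0.05, with medians of -0.06, -0.05 and -0.09 by genotype. In each genotype 28 of the 58 were lower, beside 30.0% of all tested genes. Pnisr, an SR-like protein, was at 271 to 354 CPM in WT and 151 to 319 CPM in KI mice (-0.40, SE 0.12, adjusted p = 0.163), and the SR protein kinases Clk1 and Clk4 were at -0.33 (0.259) and -0.32 (0.183). Srsf5 (-0.40, 0.300) and Srsf11 (-0.31, 0.303) followed.

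Proteostasis genes clear or refold aggregation-prone proteins such as mutant huntingtin, and 0 passed in edgeR. DESeq2 called 1 gene each of the chaperonin, heat shock and DNAJ lists and 2 of the autophagy list, beside 259 of 17906 genes over all. Of 14 chaperonin genes, which include the TRiC ring and prefoldin, 3 were higher and 1 lower, with a median of 0.078 and 11 higher in each genotype. Pfdn2, a prefoldin subunit, was at 70.0 ± 12.5 CPM in WT and 98.7 ± 16.4 CPM in KI mice (0.49, adjusted p = 0.0669). Of 42 heat shock chaperone genes 4 were higher and 4 lower. The inducible Hsp70 genes Hspa1a (-1.18, 0.312) and Hspa1b (-1.72, 0.203) were among the lower ones, but Hspa1b was at 0.362 to 37.7 CPM in WT (median 7.73) and 1.91 to 10.6 CPM in KI mice (median 5.15), Hspa1a at 1.05 to 19.9 CPM and 0.569 to 7.22 CPM, and the groups overlapped. Sil1, the exchange factor of the ER chaperone BiP, led the list (0.45, adjusted p = 0.0762), with 11 of 12 KI mice above all WT mice. Of 40 DNAJ co-chaperone genes 2 were higher, led by Dnajc14 (0.30, 0.122), and of 47 proteasome genes 7 were higher and 1 lower, led by Psmd4 (0.23, 0.182). Of 44 autophagy genes 3 were higher and 3 lower, led by Becn1 (0.28, 0.133). In the unfolded protein response list 1 of 40 was higher, Xbp1 (0.25, 0.340).

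**Figure D5:**
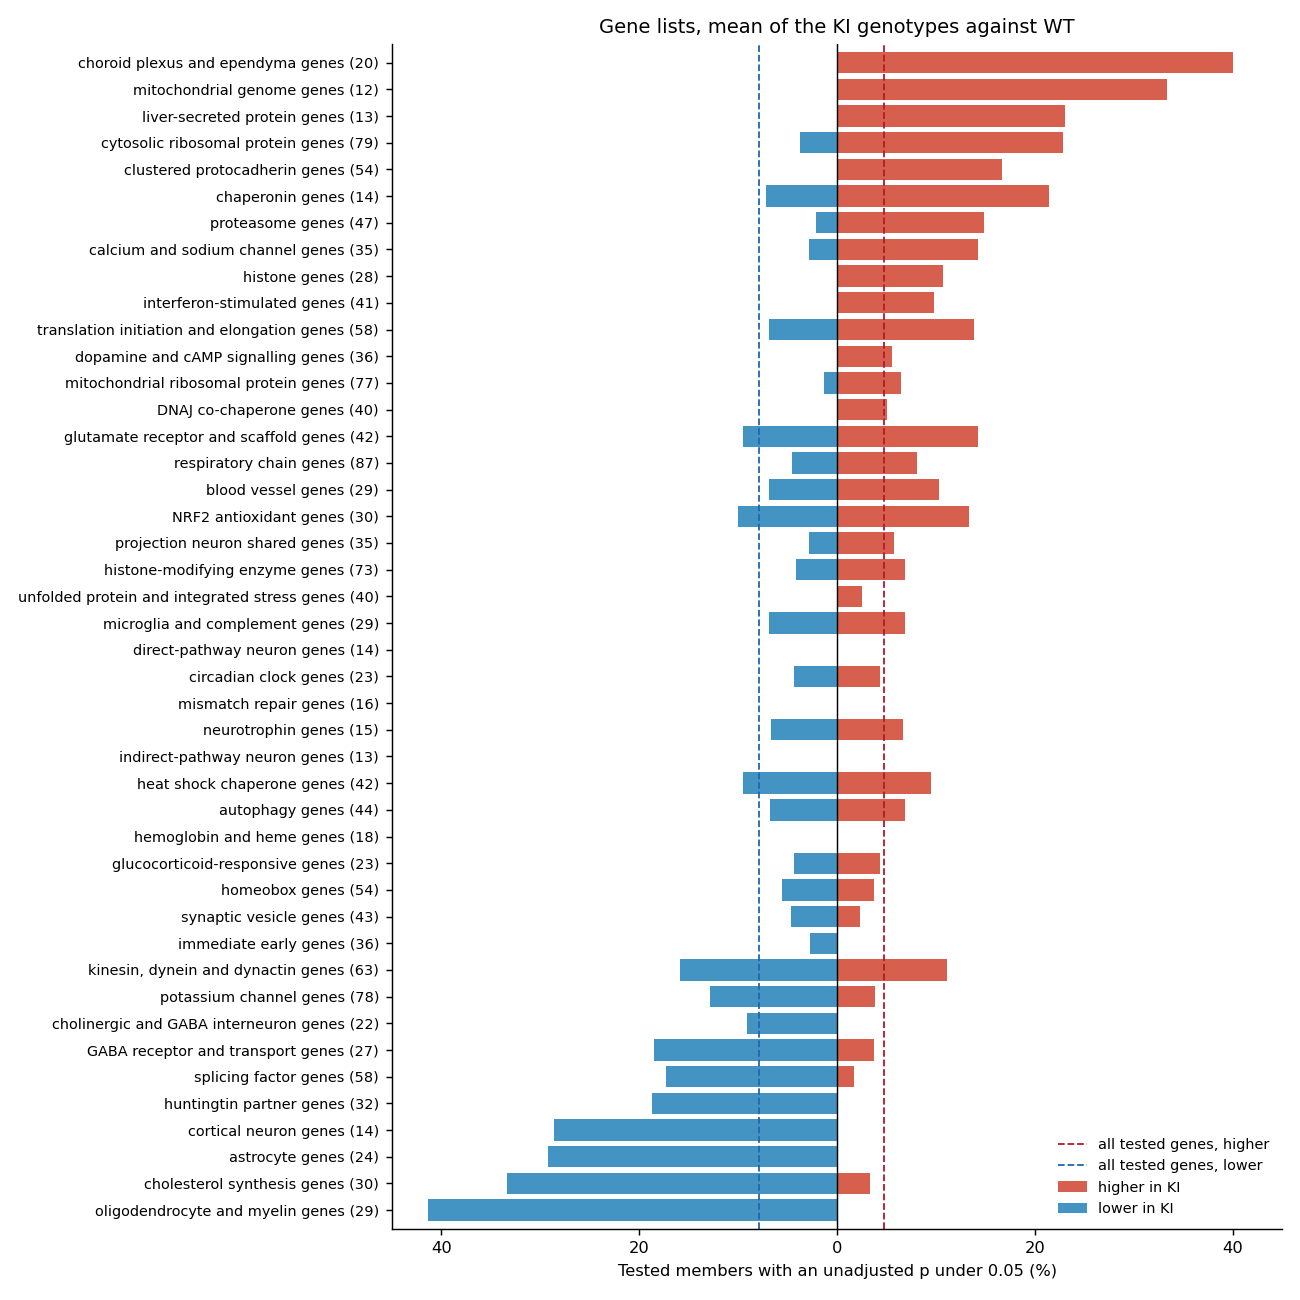
Share of the tested members of 44 gene lists (y axis, number tested in brackets) with an unadjusted p under 0.05, higher in KI mice to the right and lower to the left (x axis, percent). Dashed lines give the shares over all tested genes, 4.76% higher and 7.93% lower. Oligodendrocyte genes had 12 of 29 lower and ribosomal protein genes 18 of 79 higher.

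Clustered protocadherins are adhesion proteins that mark single neurons. Their summed level was 440 to 593 CPM in WT, 459 to 800 CPM in KI-96, 436 to 639 CPM in KI-571 and 610 to 712 CPM in KI-FL mice. The KI genotypes thus overlapped, KI-96 replicate 3 was highest, and a difference between genotypes was not tested for the list. Of 54 protocadherin genes tested, 9 were higher and 0 lower, with Pcdhga4 leading (0.39, adjusted p = 0.242). The median log2 fold change was 0.32 in KI-96, -0.03 in KI-571 and 0.31 in KI-FL mice. Interferon-stimulated genes had 4 of 41 higher and 0 lower: Lgals3bp (0.67, 0.115), Ifit3 (0.68, 0.152), Gbp3 (0.62, 0.154) and H2-K1 (0.26, 0.304). Of 29 microglia genes 2 were higher and 2 lower, led by P2ry12, a receptor of resting microglia (-0.33, 0.164). Of 29 blood vessel genes 3 were higher and 2 lower. Vwf, the von Willebrand factor gene of endothelium, was at 6.91 to 15.5 CPM in WT and 12.7 to 24.3 CPM in KI mice (0.78, SE 0.17, adjusted p = 0.0573), and the collagen genes Col4a1 (-0.26, 0.283) and Col4a2 (-0.29, 0.306) were lower. Of 30 NRF2 antioxidant genes 4 were higher and 3 lower, with Ftl1, the ferritin light chain, at 0.80 (0.0669).

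Of 36 immediate early genes 1 was lower at an unadjusted p under 0.05, Nr4a2, although 22 were lower in each genotype, beside 30.0% of all tested genes. The median of -0.16 was -0.007 with WT replicates 1 to 4 alone. Of 63 kinesin, dynein and dynactin genes, which drive the axonal transport that huntingtin supports, 7 were higher and 10 lower, and Dync1i2, a dynein intermediate chain, was at 129 to 157 CPM in WT and 93.8 to 144 CPM in KI mice (-0.31, SE 0.074, adjusted p = 0.0835), with 10 of 12 KI mice below all WT mice. Of 32 genes of huntingtin and its partners 6 were lower and 0 higher, among them Htt and Zdhhc17, the palmitoyl transferase of huntingtin (-0.17, 0.230). Of 73 histone-modifying enzyme genes 5 were higher and 3 lower (Kdm3a led with -0.27, 0.122), of 28 histone genes 3 were higher (H2afj, 0.72, 0.189), and of 54 homeobox genes 2 were higher and 3 lower (Pou3f2, -0.26, 0.201). Of 16 mismatch repair genes, which govern the growth of the repeat, 0 were past the limit, with Exo1 first (-0.78, 0.406), and this held for 0 of 18 hemoglobin and heme genes as well (Hbb-bt first, 0.49, 0.412). Circadian (Bhlhe41 first, 0.30, 0.242), glucocorticoid-responsive (Fkbp5, 0.38, 0.164) and neurotrophin genes (Gfra2, -0.79, 0.316) each had 1 higher and 1 lower. Gfra2 was at 48.4 CPM in WT replicate 3 and 5.58 to 17.7 CPM in the other WT mice, and its log2 fold change was -0.22 without that mouse.

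Gene length was set beside the direction, since KI-96 replicate 3 stood apart in it. Among protein-coding genes, 5.72% of the shortest of 5 bins by exon length and 11.1% of the longest bin were lower at an unadjusted p under 0.05, while 4.19% and 5.24% were higher. The median log2 fold change was nearly flat over the bins, between -0.043 and -0.026. By genotype it ran from -0.10 in the shortest to 0.04 in the longest bin in KI-96 mice and from 0.02 to -0.05 in KI-571 mice, in opposite directions.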

How the data were processed

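Striatal RNA of 19 mice was sequenced. According to the study's methods, the authors trimmed reads with BBduk, aligned them to GRCm38 with STAR and counted them per gene with HTSeq. The values used are the raw counts per gene as deposited. STAR and HTSeq versions and the strand setting are not given in the sources used here. The table held 54232 genes. Its 5 HTSeq summary rows (20.8% to 32.8% of reads) and 4 columns of none of these mice were left out. The study adjusted for sacrifice batch and dropped 1 WT outlier. The labels give neither, so all 19 mice entered with no batch term.

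Genes with enough counts by filterByExpr (minimum 10, total 15) outside X and Y were tested (17906). edgeR 4.0.16 (R 4.3.3, limma 3.58.1) fitted 1 coefficient per genotype with TMM scaling, and the quasi-likelihood F-test compared the equally weighted mean of the KI genotypes with WT. A second test compared the KI genotypes with each other. P-values were adjusted by Benjamini-Hochberg over all tested genes, with a threshold of 0.05, and the SE is the log2 fold change divided by the root of F. For Alb, folds were set against a floor of 3 counts (0.145 CPM in WT). Alternatives used DESeq2 1.42.0, sva 3.50.0, other filters, other WT mice, a covariate and each mouse left out.

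On simulated data for this comparison (17906 genes, 200 changed), 67% of 2-fold and 92% of 4-fold changes were called, and 5.36% of calls were false. The simulated counts held no batch or sex effect, no split among WT mice and an equal change in all KI genotypes. These rates may therefore not hold for the real mice. Genes were named by rule: 4 genes taken from the study (Htt, Hspbp1 and Gfap, which it measured by other methods, and Stub1, which encodes the co-chaperone it names), in each direction up to 12 annotated genes that passed with the same sign in all genotypes (up to 5 by unadjusted p where fewer passed), and the first gene of each list. Not every gene that the rule gives is reported here. Other genes are named as chosen after their values were seen. The comparison and the 44 lists were chosen with earlier results of these data known. GENCODE M21 gave positions and RefSeq the promoter windows.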

Additional observations from a re-analysis of the deposited data

Results flagged for a closer look

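In each genotype, the highest and the lowest mouse were compared with the rest by Dixon's gap test. Of 124 groups of 4 or 7 mice, 13 held a mouse far from the others, where chance gives about 1 in 20 (6). WT replicate 3 was low for Gfap, at 6.51 log2 CPM against 7.37 to 7.91 in the other WT mice, for Ptprz1 at 7.47 (7.89 to 8.16) and for Ugt8a at 6.13 (6.73 to 7.07). The same mouse was high for the summed cortical neuron genes, at 10.6 log2 CPM against 7.56 to 8.22, as was KI-571 replicate 2 at 9.53 against 7.85 to 8.09 in its genotype. WT replicate 1 was low for Catspere1 at -2.61 (1.96 to 3.33) and for 1700034H15Rik at 1.91 (2.59 to 2.78). WT replicate 2 was high for the summed choroid plexus genes at 9.96 (8.62 to 9.03). KI-571 replicate 2 was low for Kcnj16 at 2.76 (3.25 to 3.33), and KI-96 replicate 3 was high for A330076H08Rik at 3.90 (3.15 to 3.27). KI-FL replicate 1 was high for Gm3788 at 0.052 (-0.73 to -0.62), for Gm10180 at -2.07 (-3.24 in the other 3) and for the summed projection neuron genes at 14.6 (14.3 to 14.4). The cause was not tested.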

How the results depend on the processing

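Of the 15 genes, 10 passed with DESeq2 size factors, with at least 10 counts in every mouse or with a single KI coefficient, and 15 with X and Y included. The count was 259 with DESeq2 (255 with the same sign in the 3 genotypes), 125 (123) without a filter, 43 (41) with WT replicates 5 to 7 alone, 11 with 1 surrogate variable, 1 (1) without KI-FL replicate 4 and WT replicates 5 to 7, and 0 (0) with WT replicates 1 to 4 alone, with Xist as covariate, or with both. An adjusted p under 0.1 gave 113. With single mice left out it ran from 3 to 160 (same sign 3 to 159). Over 24 pairs of mice with the same replicate number, the correlation of deviations ran from -0.130 to 0.292, with 5 over 0.1. Pairs with different numbers were not compared, so that these values do not decide whether replicate numbers pair the mice. The replicate block gave 0 (0) calls (777 at an unadjusted p under 0.05).

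For the spread among KI genotypes the count of 0 became 79 with DESeq2, 51 without a filter, 14 with WT replicates 5 to 7 alone, 12 with X and Y included, 8 with DESeq2 size factors or at least 10 counts in every mouse, 7 with WT replicates 1 to 4 alone (also with Xist) or without those 4 mice, 4 with the replicate block, and 1 with Xist as covariate or 1 surrogate variable. With single mice left out it ran from 0 to 28.

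Signs turned for Eno1b (0.46 with WT replicates 1 to 4 alone, 0.50 also with Xist, 0.35 with the replicate block, 0.40 without the 4 mice), for Nr4a2 (0.47) and Gfra2 (0.028) with WT replicates 5 to 7 alone, and for Stub1, which lay near 0 throughout (-0.031 with WT replicates 1 to 4 alone, -0.00820 also with Xist, -0.028 with the replicate block, -0.029 without the 4 mice, and -0.018 to 0.070 with single mice left out). Hspbp1 ran from -0.036 to 0.12 with single mice left out. The cause was not tested. Batch of sacrifice is not in the labels, sex was not balanced, and low genes such as Alb rest on few counts.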
